A study of Homo sapiens with 6 samples.

Results

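The small nucleolar RNA host genes SNHG1, SNHG3, SNHG5, SNHG6, SNHG7, SNHG8, SNHG12, SNHG15 and SNHG16 and the related gene GAS5 were followed through p53 activation. They are 10 of the 57905 rows of the gene count matrix, taken by matching the identifiers of the matrix to these symbols, and all 10 passed the filter on low counts that left 16565 genes for testing. The cells were HCT116, an established human colorectal carcinoma line with wild-type p53. Control cells received the drug vehicle DMSO (Nut 0 h), and treated cells received 10 µM Nutlin-3a, which blocks the binding of p53 to its inhibitor MDM2, for 1 h (Nut 1 h) or 10 h (Nut 10 h). Each condition had 2 libraries described as biological replicates, giving 6 RNA-seq libraries, all of the same wild-type line with no other agent. The comparisons asked how the transcripts of these genes changed early and late after p53 activation.

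A snoRNA host gene is transcribed into a precursor whose introns carry small nucleolar RNAs. Released from the introns, box C/D snoRNAs guide 2′-O-methylation and box H/ACA snoRNAs guide pseudouridylation of ribosomal RNA. The spliced exons of the SNHG genes and of GAS5 (growth arrest-specific 5) form long non-coding RNAs. Several of these contain short open reading frames and are degraded by nonsense-mediated decay when they are translated, so that their levels depend on translation as well as on transcription. Many hosts belong to the 5′ terminal oligopyrimidine class of genes, together with the ribosomal protein genes. GAS5, SNHG1, SNHG5, SNHG6 and SNHG16 host box C/D snoRNAs, SNHG3, SNHG7, SNHG8 and SNHG15 host box H/ACA snoRNAs, and SNHG12 hosts both kinds.

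Of the snoRNAs inside the members, 3 had enough counts to be tested. Their sequences are given because they carry the separately counted intronic signal described below, with coordinates in GRCh37. SNORD78 lies in GAS5 at chr1:173834760-173834824 on the minus strand, SNORD99 in SNHG12 at chr1:28905261-28905334 on the minus strand, and SNORA73B in SNHG3 at chr1:28835071-28835274 on the plus strand. Capitals mark the box D motif CTGA in the box C/D snoRNAs and the ACA box before the 3′ end in the H/ACA snoRNA. The searched box C letters ATGATGA were not in SNORD78 or SNORD99, which says only that these letters are absent.
SNORD78: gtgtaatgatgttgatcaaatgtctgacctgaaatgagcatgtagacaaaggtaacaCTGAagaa
SNORD99: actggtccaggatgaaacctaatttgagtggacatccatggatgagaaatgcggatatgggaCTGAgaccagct
SNORA73B: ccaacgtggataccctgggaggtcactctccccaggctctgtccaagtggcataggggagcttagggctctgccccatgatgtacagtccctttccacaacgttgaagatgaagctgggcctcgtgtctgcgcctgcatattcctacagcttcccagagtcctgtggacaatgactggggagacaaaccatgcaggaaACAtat

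The RefSeq promoter table (GRCh38.p14) held windows for 8 of the 10 members. SNHG6 and SNHG15 had no entry. A run of at least 7 pyrimidines that begins with C within 10 bases of the listed start, the letter pattern of an oligopyrimidine start, was found in SNHG12 and SNHG7, 2 of 8 members, against 13.5% of 35116 promoter windows in the table. The E-box CACGTG, the letters bound by MYC and related factors, was found in 1 of 8 members, SNHG7, at 122 bases before the start, against 7.26% of all windows. TATAAA was found in 2 of 8 members, SNHG7 and SNHG1 (on the other strand), against 11.5%. The full p53 consensus, 2 decamers with a spacer of at most 13 bases, was found in 0 of 8 members and in 0.0285% of all windows. Both strands were searched for these 3 motifs, and the pyrimidine run was searched on the transcribed strand only. A match is a description of the letters and not of a bound site. Only 1 listed start per member was searched. GAS5 has 91 annotated transcripts, and its canonical transcript starts at 173837127, inside the outermost annotated start at 173838020 (GRCh37). The lack of a counted run in the GAS5 window therefore does not describe its other starts. The 41 bases around the listed start of 4 members are shown because these members behaved differently: SNHG12 and GAS5 rose at 1 h, SNHG8 was higher at 10 h, and SNHG7 was lower at 1 h without the GC-content offset. Capitals mark the pyrimidine runs counted by this rule, each from its first C within that distance. In SNHG7 the counted bases are the end of a longer run that begins further upstream. SNHG16 and SNHG1 hold runs of that length that begin with T, which the rule does not count. The windows lie at chr1:28581853-28581893 (minus strand) for SNHG12, chr9:136728164-136728204 (minus) for SNHG7, chr1:173869025-173869065 (minus) for GAS5 and chr4:118278742-118278782 (plus) for SNHG8.
SNHG12: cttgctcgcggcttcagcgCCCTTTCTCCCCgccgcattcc
SNHG7: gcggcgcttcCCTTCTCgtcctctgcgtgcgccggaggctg
GAS5: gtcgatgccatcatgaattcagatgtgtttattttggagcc
SNHG8: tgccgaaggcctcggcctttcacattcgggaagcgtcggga

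The 6 libraries held 26068076 to 35473485 counts, the lowest total being in a Nut 1 h library. MDM2, a direct p53 target, was upregulated by 2.19 on the log2 scale at 1 h (SE 0.13) and by 3.75 at 10 h (SE 0.13), and CDKN1A, which encodes a cell cycle inhibitor, by 3.84 at 10 h (SE 0.11; edgeR's quasi-likelihood test, adjusted p at most 3.5e-08 for each). At 1 h MDM2 was at 1.51 with the GC-content offset described below, and CDKN1A was at 0.05 (SE 0.10, not called; 0.67 and called with the offset). Of 6 epithelial markers, 5 had at least 2354 counts in every library and VIL1 had 0 to 10. The leukocyte marker PTPRC had 0 to 2 counts, the fibroblast marker COL1A1 621 to 1484, and the smooth muscle actin gene ACTA2 44 to 80 counts at 0 and 1 h and 653 to 744 at 10 h. Their part in the results was not tested. A property of the Nut 1 h libraries touches every result at that time. The log2FC at 1 h fell with the GC content of a gene's transcript across 15841 tested genes (Pearson's r = -0.705, a description across genes that share the same libraries), from a median of 0.81 below 40% GC to -1.12 at 60% and above. At 10 h the same medians were 0.03 and -0.08 (r = -0.03). The members were therefore also fitted with a GC-content offset, which removes this trend, and those values are given with the results at 1 h.

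At Nut 0 h, CPM per kilobase of transcript placed GAS5 and SNHG1 above the other members, whether the canonical transcript or the median length over annotated transcripts was used. With the canonical lengths GAS5 stood at 135 and 156 and SNHG1 at 121 and 148 in the 2 libraries, which overlap, and with the median lengths at 141 and 164 and at 107 and 131, which do not. SNHG3 (28.6 ± 2.27, SD, n = 2), SNHG6 (27.7 ± 1.00) and SNHG12 (26.8 ± 2.58) could not be ordered with the canonical lengths, but with the median lengths SNHG6 stood at 97.0 ± 3.49, SNHG12 at 46.3 ± 4.46 and SNHG3 at 28.6. The places of SNHG16 and SNHG8 also depended on the transcript chosen: SNHG16 ranked 3 at 108 with its 498-base canonical transcript and 9 at 21.8 with the median length of 2459 bases, and SNHG8 ranked 10 at 4.46 with 6166 bases and 5 at 56.3 with 489 bases. Together the 10 genes took 0.0599% and 0.0678% of all counts at 0 h, 0.0959% and 0.0960% at 1 h, and 0.0642% and 0.0684% at 10 h. The share in both 1 h libraries lay above every other library. The share of mitochondrial counts was also highest in the 1 h libraries, at 8.44% and 8.15%, against 4.99 to 7.06% in the other 4, and its part in the results was not tested.

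One hour of Nutlin-3a raised 8 of the 10 genes and lowered 1 without correction for GC content. Under the GC-content offset, 3 of these 9 calls turned direction, SNHG6 and SNHG8 to lower and SNHG7 to higher. Without it, GAS5, SNHG3, SNHG5, SNHG16, SNHG1, SNHG12, SNHG6 and SNHG8 were upregulated, by 1.19- to 1.87-fold, SNHG7 was downregulated to 0.772 of its control level, and SNHG15 was not called. Calls are at an adjusted p of at most 0.05 from edgeR's quasi-likelihood test, with the Benjamini-Hochberg adjustment over all 16565 genes. Of all tested genes, 34.5% were called higher and 32.3% lower in this comparison, so single calls were common. Without an offset the median log2FC of the members was 0.56, against 0.05 for all tested genes, and single members ranged from -0.37 to 0.90. They ranged from -0.46 to 1.03 with the GC-content offset. With the GC content taken as the median over annotated transcripts they ranged from -0.22 to 0.70. Counts from bulk RNA cannot tell a change in RNA per cell from a change in the mix of cells.

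**Figure D1:**
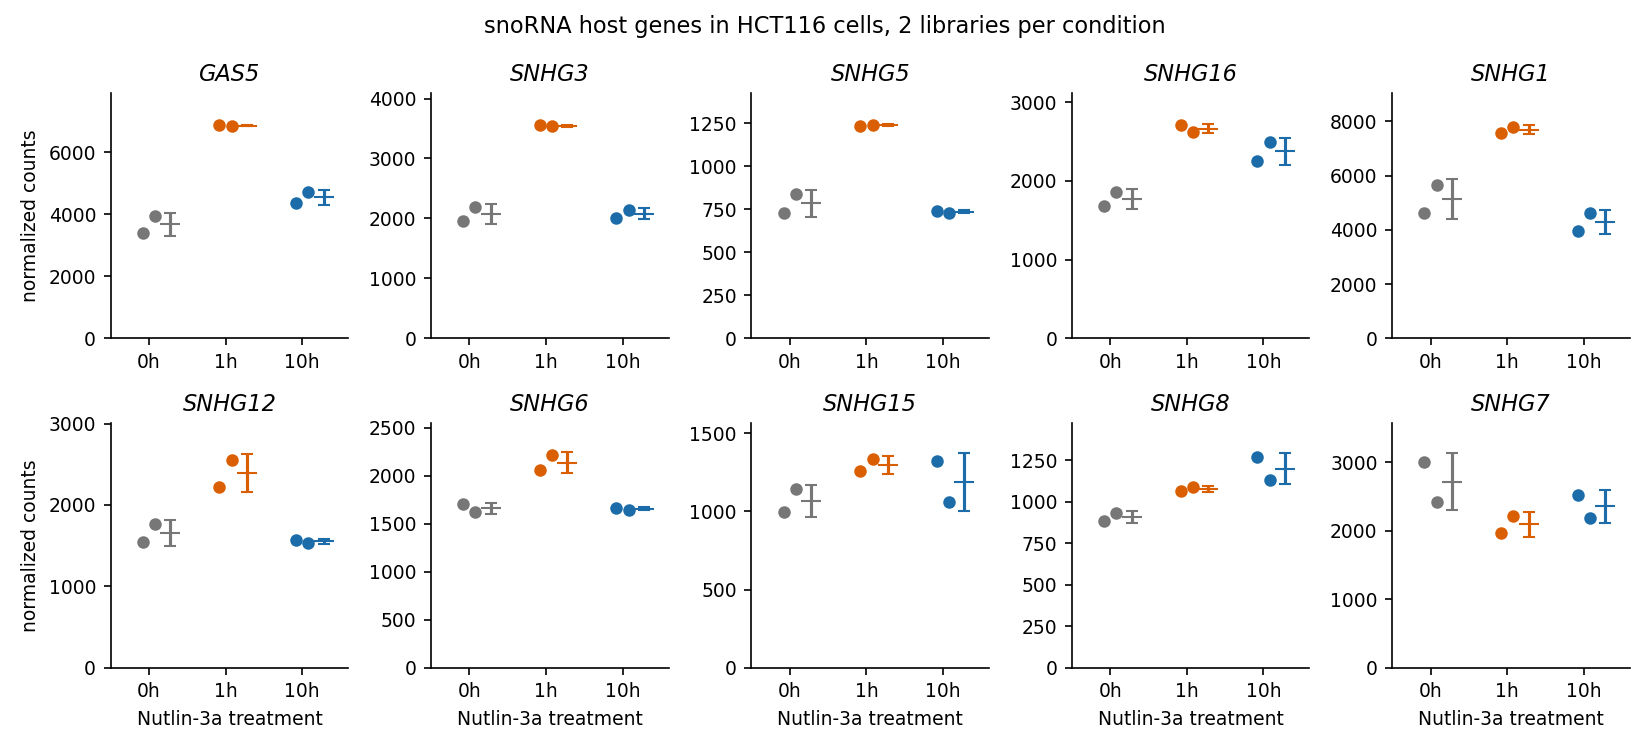
Normalized counts (vertical axis, starting at 0) of each host gene in the 2 libraries of Nut 0 h, Nut 1 h and Nut 10 h; points are libraries, and the bar beside them is the mean with its SD. In GAS5, SNHG3, SNHG5, SNHG1, SNHG12, SNHG6 and SNHG16 both 1 h libraries lie above the other 4. How many of all tested genes show this was not counted, while 34.5% of them were called higher at 1 h against 0 h.

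GAS5, whose RNA is known to accumulate when growth stops, gave the largest rise of the members without the GC-content offset, under which SNHG7 and SNHG12 stood higher. Its normalized counts were 3410 and 3948 at 0 h, 6875 and 6853 at 1 h, and 4377 and 4726 at 10 h. The 3 conditions did not overlap. The log2FC at 1 h was 0.90 (SE 0.10, adjusted p = 2.9e-06 in edgeR). With the GC-content offset it was 0.66, and 0.41 when the GC content was instead taken as the median over the annotated transcripts, both called higher.

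Among the other box C/D hosts, SNHG1 had the most counts of all members at 0 h and 1 h, and GAS5 at 10 h. SNHG1 had 4628 and 5663 normalized counts at 0 h, 7569 and 7807 at 1 h, and 3968 and 4609 at 10 h. The 1 h libraries stood above both other conditions, and the log2FC at 1 h was 0.58 (SE 0.11), which dropped to 0.21 with the GC-content offset and 0.09 with its version from the median over transcripts. SNHG5 had 730 and 838, 1234 and 1242, and 741 and 729 normalized counts in the same order, with a log2FC of 0.66 (SE 0.10; 0.46 and 0.22 with these offsets). Its 10 h values fell within or just under the range at 0 h. SNHG16 had 1681 and 1854 at 0 h, 2705 and 2623 at 1 h, and 2256 and 2498 at 10 h. Its log2FC at 1 h was 0.59 (SE 0.10; 0.58 and 0.21 with the offsets), and here all 3 conditions were apart. SNHG6 rose less, from 1706 and 1621 to 2060 and 2214, with 1669 and 1646 at 10 h. Its log2FC at 1 h was 0.36 (SE 0.09) but -0.27 and -0.22 with the offsets, both called lower. The call for SNHG6 was also lost without Nut 1h replicate 2, at 0.30. Without an offset the adjusted p for these genes ranged from 6.2e-05 to 0.0032 in edgeR.

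Among the hosts of H/ACA snoRNAs the response was divided. SNHG3 had 1960 and 2193 normalized counts at 0 h, 3559 and 3535 at 1 h, and 2011 and 2140 at 10 h. It rose by 0.77 (SE 0.09, log2 scale, adjusted p = 7.1e-06 in edgeR; 0.56 and 0.46 with the offsets) and its 10 h libraries lay inside the range at 0 h. SNHG12, host to both kinds, had 1542 and 1767, then 2226 and 2559, then 1573 and 1532, and rose by 0.53 at 1 h (SE 0.10; 0.95 and 0.70 with the offsets). SNHG8 had 884 and 932 at 0 h, 1065 and 1091 at 1 h, and 1266 and 1132 at 10 h. It was the only member whose 10 h libraries were both above both 1 h libraries, and its log2FC at 1 h was 0.25 (SE 0.10, adjusted p = 0.043 in edgeR), against -0.46 (called lower) and -0.05 with the offsets. The call for SNHG8 at 1 h was lost in 14 of 17 alternative analyses. Its log2FC was 0.20 to 0.27 with a library left out, 0.20 with DESeq2 and 0.04 with the length offset. SNHG15 had 997 and 1141, then 1256 and 1338, then 1323 and 1058. Its log2FC at 1 h of 0.28 (95% interval 0.02 to 0.53, adjusted p = 0.052 in edgeR) did not pass, although the 0 h and 1 h libraries did not overlap. SNHG15 remained uncalled in 7 of 17 alternative analyses and was called higher in the rest. With a library left out its log2FC was 0.18 to 0.37. SNHG7 was the one member called lower without an offset, from 3009 and 2421 at 0 h to 1969 and 2224 at 1 h, with 2530 and 2191 at 10 h. Its log2FC at 1 h was -0.37 (SE 0.12, adjusted p = 0.012 in edgeR), but the offsets turned it to 1.03 (called higher) and 0.04. The pair of SNHG7 libraries at 0 h was itself uneven. The call was lost without Nut 0h replicate 1 (-0.22), without Nut 1h replicate 1 (-0.28) and with the length offset (-0.11). With a library left out the log2FC ranged from -0.53 to -0.22.

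**Figure D2:**
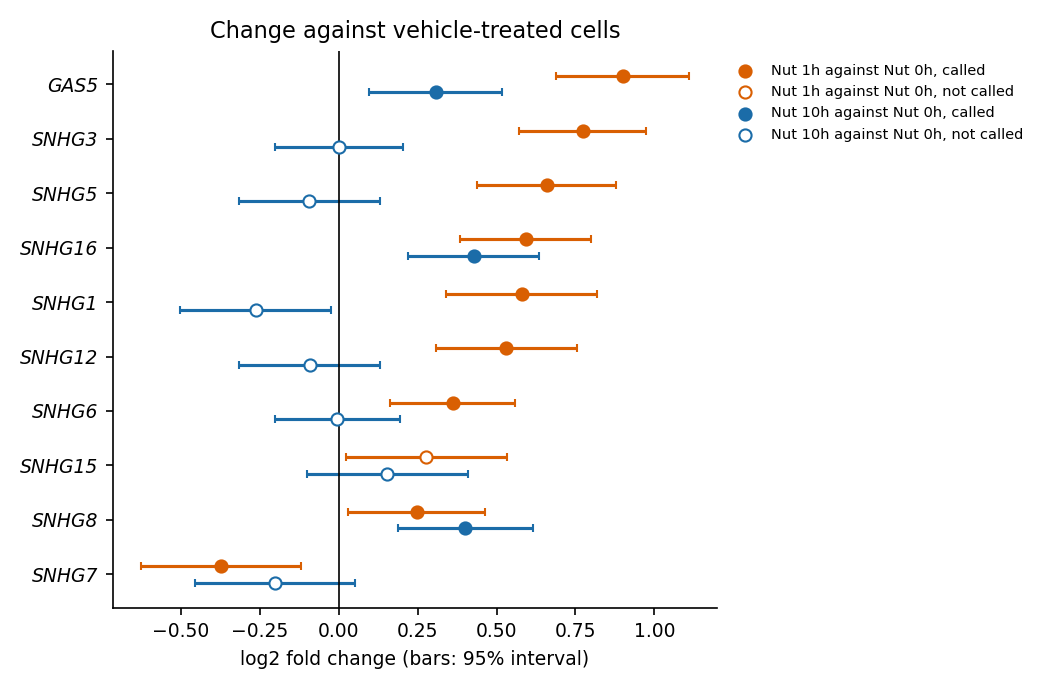
Log2 fold change (horizontal axis) of each host gene after 1 h (orange) and 10 h (blue), each against Nut 0 h, with 95% intervals; filled points are called at an adjusted p of at most 0.05. The 8 filled orange points above 0 and the single one below it are the 1 h calls, and 3 members are called at 10 h.

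The GC content of the members' canonical transcripts ran from 39.0% in SNHG8 to 65.9% in SNHG7, so the trend at 1 h did not act on them alike. Tested genes with 45 to 50% GC, the range of GAS5, SNHG3, SNHG5 and SNHG16, had a median log2FC at 1 h of 0.19 (quartiles -0.13 and 0.50), and 35.0% of them were called higher. Those 4 members lay between 0.59 and 0.90. Genes with 40 to 45% GC, the range of SNHG1 and SNHG6, had a median of 0.53 (quartiles 0.26 and 0.81), and 66.4% were called higher. SNHG1, at 0.58, lay near that median and SNHG6, at 0.36, below it. Genes with 50 to 55% GC, the range of SNHG12 and SNHG15, had a median of -0.20 (quartiles -0.53 and 0.13), and 11.5% were called higher. SNHG12, at 0.53, and SNHG15, at 0.28, lay above that upper quartile. For genes under 40% GC, the range of SNHG8, the median was 0.81, and the 0.25 of SNHG8 lay under the lower quartile of 0.56. For genes of 60% GC and above, the range of SNHG7, the median was -1.12, and the -0.37 of SNHG7 lay above the upper quartile of -0.80.

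With the GC-content offset from the canonical transcript, 8 members were again called higher at 1 h, but not the same 8, and 2 were called lower, where that fit called 24.9% of all tested genes higher and 20.6% lower. SNHG7 turned from lower to higher (1.03), SNHG15 became called (0.36), SNHG12 rose to 0.95, and SNHG6 (-0.27) and SNHG8 (-0.46) turned from higher to lower. With the GC content as the median over transcripts, 6 were called higher and 1 lower, beside 24.6% and 21.4% of all tested genes. SNHG7 (0.04) and SNHG8 (-0.05) were then near 0 and SNHG1 (0.09) was not called. SNHG7 and SNHG8 have transcripts of very unlike composition, with canonical GC of 65.9% and 39.0% but medians of 55.3% and 46.6%, so their values at 1 h depended on the offset and on the transcripts used for it. GAS5, SNHG3, SNHG5, SNHG12 and SNHG16 were called higher at 1 h in all 17 alternative analyses, and SNHG1 in 16. These analyses draw on the same libraries and are not independent.

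**Figure D3:**
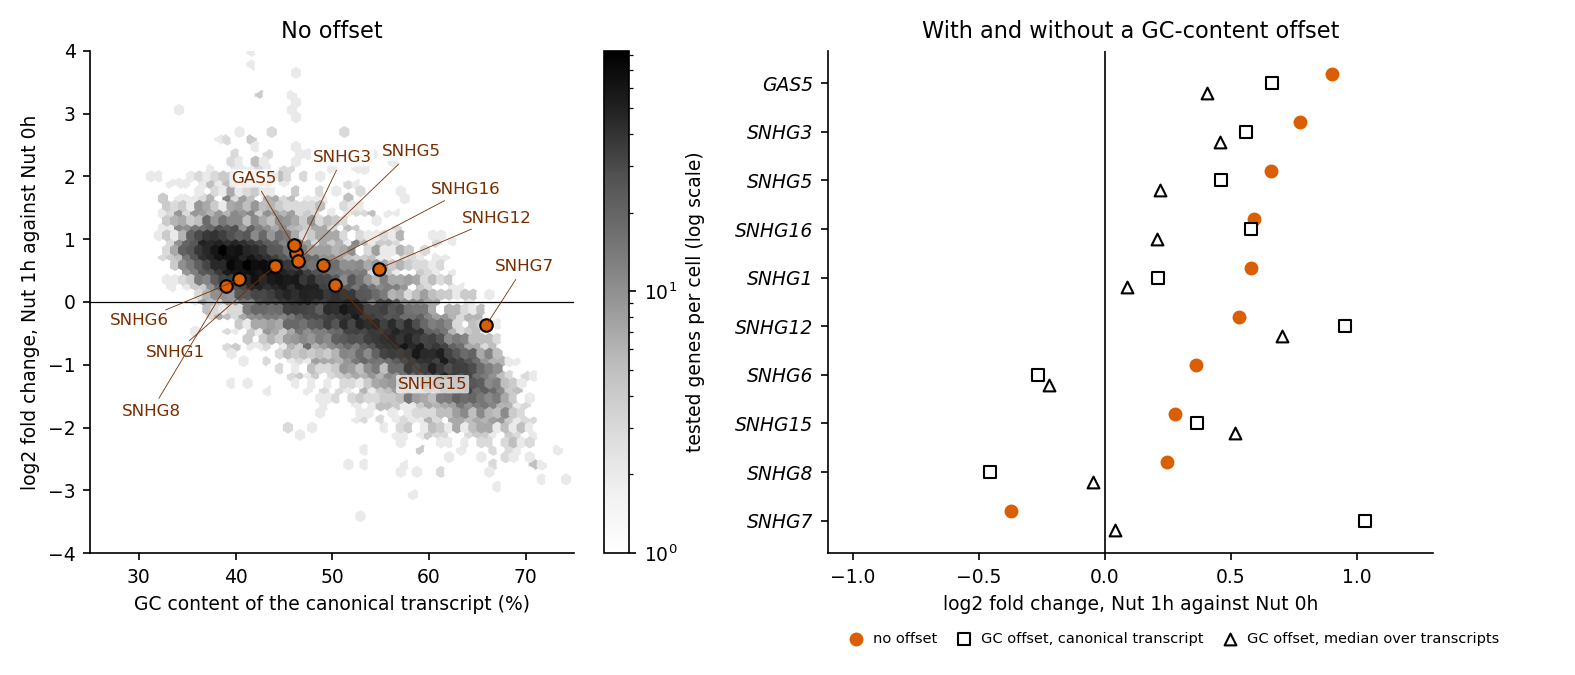
Left, log2 fold change at Nut 1 h against Nut 0 h (vertical axis) by GC content of the canonical transcript in percent (horizontal axis), for tested genes (grey hexagons, density on a log scale) and the host genes (orange). Right, the host genes' log2 fold change without an offset (circles) and with the GC-content offset from the canonical transcript (squares) or the median over transcripts (triangles); SNHG7, SNHG6 and SNHG8 change sign, while GAS5, SNHG3, SNHG5, SNHG12 and SNHG16 stay above 0.

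At 10 h 3 members were called higher than in the control cells, 0 lower, and 7 were not called. SNHG16 (0.43, SE 0.10, 1.34-fold), SNHG8 (0.40, SE 0.10, 1.32-fold) and GAS5 (0.31, SE 0.10, 1.24-fold) were called higher than at 0 h on the log2 scale, with adjusted p of 0.0043, 0.0080 and 0.030 in edgeR. These were 3 of 10 members, where 14.1% of all tested genes were called higher and 14.9% lower. No member was called lower by edgeR or by DESeq2, while 1, SNHG1, was lower at an unadjusted p under 0.05 (-0.26, 95% interval -0.50 to -0.02, adjusted p = 0.094 in edgeR). Both SNHG1 libraries at 10 h lay below both at 0 h. With a library left out, its log2FC ranged from -0.40 to -0.115. The remaining members stood at 0.00 for SNHG3 (95% interval -0.20 to 0.20), 0.00 for SNHG6 (-0.20 to 0.19), -0.09 for SNHG5 (-0.32 to 0.13), -0.09 for SNHG12 (-0.32 to 0.13), 0.15 for SNHG15 (-0.10 to 0.41) and -0.20 for SNHG7 (-0.45 to 0.05). The intervals leave room for changes of about that width in these 6 genes. With a library left out, SNHG7 ranged from -0.36 to -0.04.

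The calls at 10 h rested on few libraries. Without Nut 0h replicate 1, which held the lower control value of GAS5, SNHG16 and SNHG8, none of the 3 was called and SNHG1 was called lower, while the log2FC remained 0.20 for GAS5, 0.36 for SNHG16 and 0.32 for SNHG8. The GAS5 call was lost in 6 of 17 alternatives: without a low-count filter, with 4 libraries only, and without Nut 0h replicate 1, Nut 1h replicate 1, Nut 1h replicate 2 or Nut 10h replicate 2 (adjusted p up to 0.32 in edgeR). The GC-content offset left the values at 10 h almost as they were, with 3 members called higher and SNHG1 called lower (-0.27), beside 20.1% and 20.2% of all tested genes in that fit.

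Between 1 h and 10 h, tested directly, 6 members fell and 0 rose by edgeR or DESeq2, with 0 higher at an unadjusted p under 0.05. SNHG1 fell by 0.84 on the log2 scale (SE 0.11), SNHG3 by 0.77 (SE 0.09), SNHG5 by 0.75 (SE 0.10), SNHG12 by 0.62 (SE 0.10), GAS5 by 0.59 (SE 0.10) and SNHG6 by 0.37 (SE 0.09). The call for SNHG6 was lost without Nut 1h replicate 2, with log2FC of -0.42 to -0.31 when a library was left out. Across all tested genes 34.2% were called higher and 33.7% lower in this comparison. SNHG16 (-0.16, 95% interval -0.37 to 0.04), SNHG8 (0.15, -0.06 to 0.37), SNHG15 (-0.12, -0.38 to 0.13) and SNHG7 (0.17, -0.08 to 0.43) were not called. With the GC-content offset SNHG6 (0.26) turned to higher, SNHG7 (-1.14) and SNHG16 (-0.17) were called lower and SNHG8 (0.86) higher, beside 27.9% of all tested genes called higher and 30.7% lower in that fit. The 1 h libraries take part in both the 1 h rise and this fall, so the second is no separate evidence of the first.

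The separately counted snoRNAs rose at 1 h, as their hosts did. SNORD78 in GAS5 had 11 and 11 counts at 0 h, 60 and 40 at 1 h, and 16 and 17 at 10 h. Its log2FC at 1 h was 2.39 (SE 0.34, adjusted p = 2.6e-05 in edgeR), larger than the 0.90 of GAS5, though that difference was not tested. SNORD99 in SNHG12 had 16 and 23, then 56 and 37, then 17 and 9 counts, and rose by 1.47 at 1 h (SE 0.35). SNORA73B in SNHG3 had 56 and 64, then 108 and 114, then 79 and 80 counts, and rose by 1.13 (SE 0.21). In all 3 both 1 h libraries exceeded the other 4, and none was called at 10 h against 0 h by edgeR (0.57, -0.58 and 0.40). Neither pattern is rare, as 34.5% of all tested genes were called higher at 1 h. At 10 h only 14.1% were called higher and 14.9% lower. How many of all tested genes show such separation was not counted. With a library left out, SNORD99 ranged from -1.13 to -0.16 at 10 h. SNORD1B in SNHG16 had 0 to 6 counts and was not tested. Reads of a mature snoRNA and of the unspliced host intron around it cannot be told apart in these counts. The transcript table gave no GC content for these 3 genes, so the offset did not act on them.

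Genes that overlap the members, or start beside them on the other strand, did not move with them in a uniform way. Strand use in the counting was not given in the sources used here, so reads of overlapping antisense exons cannot be told apart. ZBTB37, a zinc-finger gene on the other strand, starts 800 bases from the outermost annotated start of GAS5. Its start at chr1:173837220 lies much closer to that of the canonical GAS5 transcript, at chr1:173837127 (GRCh37). ZBTB37 had 235 and 315 counts at 0 h, 1037 and 578 at 1 h, and 311 and 411 at 10 h. It rose by 1.76 at 1 h (SE 0.18, log2 scale, adjusted p = 1.5e-06 in edgeR; 1.08 with the GC-content offset) and was not called at 10 h (0.39, SE 0.18). RCC1, the nucleotide exchange factor of RAN, holds SNHG3 within it on the same strand, and was at -0.16 at 1 h (SE 0.09, not called; 0.09 with the offset) and -0.38 at 10 h (called lower, but not without Nut 0h replicate 1). SLC3A2, an amino acid transporter subunit whose start lies 51 bases from that of SNHG1, was lower at 1 h (-0.31, not called without Nut 0h replicate 1 or Nut 1h replicate 1), but higher with the offset (0.36), and not called at 10 h (-0.21). FAM69B, named DIPK1B in the reference, overlaps SNHG7 and fell from 901 and 685 counts to 160 and 131 at 1 h (-2.22, SE 0.19; -1.28 with the offset). PRSS12, which overlaps SNHG8, fell by 0.48 at 1 h (-0.51 with the offset). ST6GALNAC2, which overlaps SNHG16, fell by 0.90 at 1 h (-0.63 with the offset). With the GC content as the median over transcripts PRSS12 was at -0.84, and ST6GALNAC2 was at -0.48 and not called. At 10 h ST6GALNAC2 rose by 0.54 (0.29 to 0.84 with a library left out, and not called without Nut 0h replicate 1 or with DESeq2). TRNAU1AP, which overlaps the 3′ end of SNHG12, was not called (-0.13 and 0.07), but was lower at 1 h with the offset (-0.27). MCMDC2, which overlaps SNHG6, had 2 to 20 counts in a library and was called lower at 10 h (-1.66, adjusted p = 0.046 in edgeR; -2.89 to -1.02 with a library left out, the call remaining only without Nut 0h replicate 2 or Nut 10h replicate 2). With the offset SLC3A2 (-0.17), FAM69B (-0.30) and PRSS12 (-0.28) were also called lower at 10 h.

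The members lie at chr1:173827697-173838020 (GAS5, minus strand), chr11:62619450-62623425 (SNHG1, minus), chr1:28832492-28837404 (SNHG3, plus), chr6:86360209-86388650 (SNHG5, minus), chr8:67832796-67838633 (SNHG6, minus), chr9:139615818-139622636 (SNHG7, minus), chr4:119199858-119206471 (SNHG8, plus), chr1:28905050-28909644 (SNHG12, minus), chr7:45022618-45026560 (SNHG15, minus) and chr17:74553809-74667067 (SNHG16, plus) in GRCh37. All are annotated as long non-coding RNA genes with between 3 (SNHG3) and 91 (GAS5) transcripts.

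Of 8 other tested non-coding hosts, 2 rose and 2 fell at 1 h, with a median log2FC of 0.02. ZFAS1 (0.32; 0.10 and not called with the GC-content offset) and C6orf48 (0.29) rose, and SNHG9 (-1.76; -0.63 with the offset) and SNHG11 (-0.52; -0.21 and not called with the offset) fell. The call for C6orf48 was lost with DESeq2, with no low-count filter, and without Nut 0h replicate 1 or Nut 1h replicate 2, with log2FC of 0.19 to 0.38 when a library was left out. Leaving out a library also removed the calls for ZFAS1 (without Nut 0h replicate 1 or Nut 1h replicate 1) and SNHG11 (without Nut 0h replicate 2, at -0.32, or Nut 1h replicate 1). At 10 h EPB41L4A-AS1 was higher (0.46), and SNHG9 (-0.71) and SNHG10 (-0.69; -0.94 to -0.46 with a library left out) were lower. Without Nut 0h replicate 1 neither EPB41L4A-AS1 nor SNHG10 was called, nor was SNHG10 without Nut 10h replicate 2 or with DESeq2. The small number tested and the 34.5% and 32.3% of all genes called in each direction at 1 h set the scale of these counts.

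The protein-coding hosts of the translation machinery, chiefly ribosomal protein and translation factor genes, were mostly lower at 1 h. Of 33, 7 rose and 20 fell, against 34.5% and 32.3% of all tested genes, with a median log2FC of -0.34. With the GC-content offset the median was -0.23, with 5 higher and 17 lower, where 24.9% and 20.6% of all tested genes were called. With a library left out, 4 (without Nut 0h replicate 1 or Nut 1h replicate 2) to 6 were higher, and 13 (without Nut 1h replicate 1) to 20 were lower. RPL39 (1.41; 0.96 with the offset) and RPL21 (0.97; 0.53) rose the most, and RPL13 (-1.29; -0.86) was among those that fell the most. Ribosomal protein genes have many processed pseudogenes, and how reads shared with them were counted was not given in the sources used here. At 10 h 3 were higher, beside 14.1% of all tested genes, and 1, EIF4G1 (-0.41, not called without Nut 10h replicate 2), was lower. The 3 became 1 (without Nut 1h replicate 2 or Nut 10h replicate 1) to 6 (without Nut 10h replicate 2) with a library left out, and 9 with the offset, beside 20.1% of all tested genes. Among them, EIF4A2 was at 0.41 (0.27 to 0.55 with a library left out, not called without Nut 0h replicate 1 or Nut 10h replicate 2) and RPLP2 at 0.40 (0.19 without Nut 0h replicate 2 to 0.64 without Nut 0h replicate 1), the call for RPLP2 being lost in 4 of 6 such fits. In the direct comparison of 10 h with 1 h, 20 rose and 6 fell, beside 34.2% and 33.7% of all tested genes.

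Of the other protein-coding hosts, 16 of 28 rose and 7 fell at 1 h, against 34.5% and 32.3% of all tested genes, with a median log2FC of 0.27. The offset gave a median of 0.13, with 13 higher and 5 lower, beside 24.9% and 20.6% of all tested genes. With a library left out, 12 to 15 were higher and 3 (without Nut 1h replicate 1) to 7 lower. The rise was led by the splicing factor gene PRPF39 (1.35; 0.50 with the offset) and RABGGTB (1.24; 0.44), a geranylgeranyl transferase subunit. SNRPB (-1.01; -0.30 with the offset), a core spliceosome protein gene, and PRRC2A (-0.94; 0.07 and not called with the offset) fell the most. At 10 h 0 of 28 were higher by edgeR or DESeq2 (2 at an unadjusted p under 0.05) and 13 were lower, against 14.1% and 14.9% of all tested genes, with a median of -0.24, the condensin subunit gene NCAPD2 (-0.78) and SNRPB (-0.66) being the lowest. The offset gave 2 higher and 17 lower at 10 h, beside 20.1% and 20.2% of all tested genes, and leaving out any 1 library gave 5 (without Nut 0h replicate 1) to 9 lower.

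Of 18 genes for proteins that bind or assemble snoRNAs, 9 rose and 6 fell at 1 h (median 0.19), beside the 34.5% and 32.3% of all tested genes. The offset gave 8 and 5, beside 24.9% and 20.6%, and without Nut 0h replicate 2 or Nut 1h replicate 2 only 6 rose. Among the 4 core proteins of H/ACA particles GAR1 rose by 1.31 (1.16 with the offset) while NOP10 fell by 0.91 (-1.01) and NHP2 by 0.86 (-0.26). ZNHIT6, an assembly factor of box C/D particles, rose by 1.03 (0.28 with the offset). At 10 h 0 were higher by edgeR or DESeq2 (1 at an unadjusted p under 0.05) and 9 lower, beside 14.9% of all tested genes, and leaving out any 1 library gave 2 (without Nut 0h replicate 1) to 7 lower. The lowest were PIH1D1 (-0.50) and NUFIP1 (-0.41), both assembly factors. Of 16 genes of nonsense-mediated decay, 7 rose and 4 fell at 1 h, shares near those of all tested genes. The offset gave 9 and 1, beside 24.9% and 20.6% of all tested genes. The kinase gene SMG1 (1.20; 0.75 with the offset) and the exonuclease gene XRN1 (1.17; 0.36) rose the most, and DHX34 (-0.88; 0.11 and not called with the offset) and SMG9 (-0.65; -0.19 with the offset) fell the most. At 10 h 0 were higher by edgeR or DESeq2 (2 at an unadjusted p under 0.05) and 3 lower, near the 14.9% of all tested genes, among them EIF4A3 (-0.57) and UPF3B (-0.49). No gene of the last 3 lists was called higher at 10 h, whereas 3 members were, a contrast of counts that was not tested. Each of these lists had 0 to 1 gene called higher with a library left out, and with the GC-content offset 2, 1 and 5 genes, beside 20.1% of all tested genes.

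**Figure D4:**
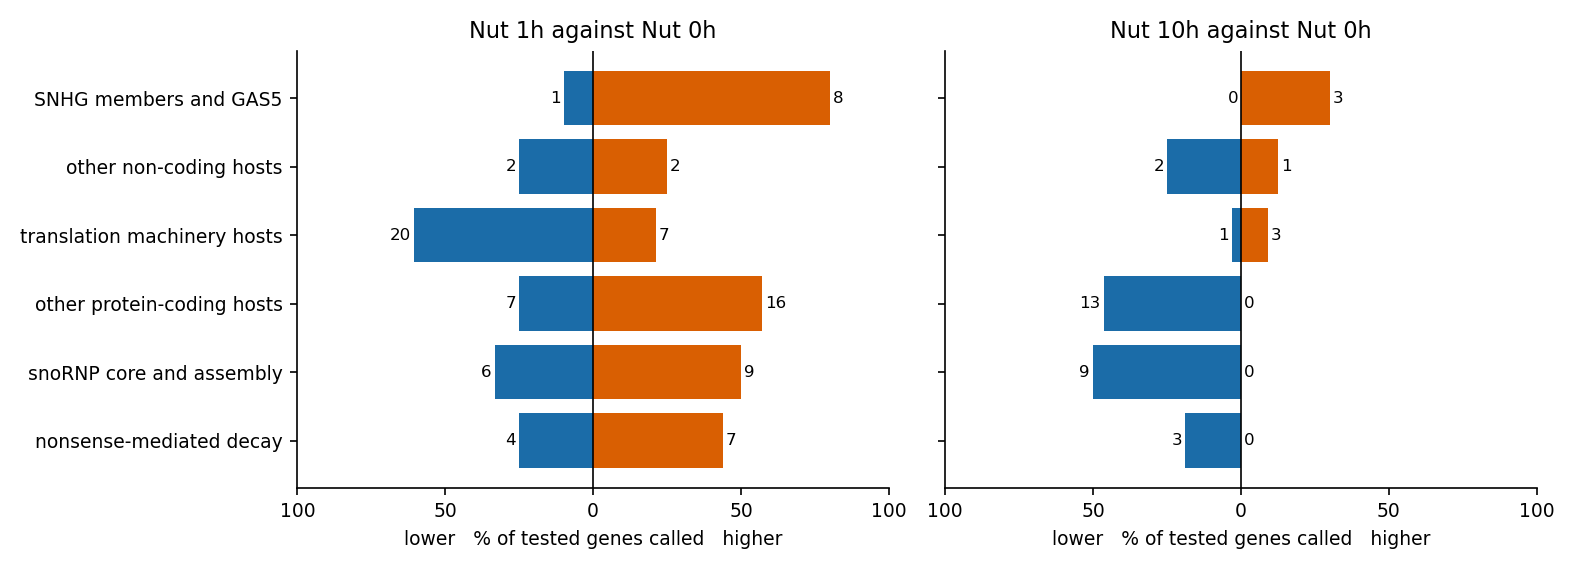
Share of the tested genes of each list, in percent (horizontal axis), called higher (orange, right) or lower (blue, left) after 1 h (left panel) and after 10 h (right panel), each against Nut 0 h; the numbers are counts of genes. Without an offset at 1 h, the SNHG genes and GAS5 are mostly higher (8 of 10). The translation machinery hosts are mostly lower (20 of 33). SNHG6, SNHG7 and SNHG8 change direction with the GC-content offset. At 10 h the other protein-coding hosts, the snoRNP genes and the nonsense-mediated decay genes hold only lower calls. Of all tested genes, 34.5% are called higher and 32.3% lower at 1 h, and 14.1% and 14.9% at 10 h.

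Across the 6 libraries, the profile of SNHG3 was the most like that of GAS5 among the members, with a root mean square difference of 0.13 between centred log2 CPM values, and that of SNHG7 the least like it (0.55). Of 11303 other genes compared in the same way, the 5 nearest to GAS5 were FAM83B (0.03), SMARCAD1 (0.04), YIPF6 (0.04), PDE12 (0.04) and CDC40 (0.04). All 5 are protein-coding genes, with transcripts of 37.1 to 40.9% GC, against 46.0% for GAS5. This measure describes likeness over 6 libraries that share the trend with GC content.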

How the data were processed

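Per the study's methods, RNA from HCT116 cells was sequenced in paired reads, which the authors trimmed with Trim Galore 0.6.6, aligned to GRCh37.p13 with STAR 2.7.0f and counted per gene with featureCounts (Subread 2.0.0). The deposited values are raw counts per gene and library. The study names an Ensembl annotation for its transcription start sites, but none for this counting. The strand setting, RNA selection, and treatment of multimapping and overlapping reads are not given in the sources used here. A second deposited table held the authors' own fold changes and p-values, and only its identifiers and symbols were used.

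Counts were tested with edgeR 4.0.16 in R 4.3.3 (TMM, filterByExpr with a minimum count of 10, quasi-likelihood test, 3 residual degrees of freedom, all 6 libraries, Benjamini-Hochberg over 16565 genes, called at 0.05). The test of 1 h against 0 h was checked on simulated counts of 16565 genes, with and without a GC-content trend of the form the offset models. With no trend, 8 unchanged genes were called. With the trend, 7655 unchanged genes were called without the offset and 12 with it. Of 100 genes changed by 0.5 on the log2 scale, 61, 70 and 71 were recovered in that order. This check does not bear on the source of the trend in these libraries. Normalized counts use the TMM-scaled library sizes. Replicates are described as biological. They differed by more than sampling noise. The p-values rest on a spread between libraries that is shared by the 3 conditions and moderated with that of other genes. They do not measure the spread of the 2 libraries of a single condition. Counting precision was not the limit, as every member had at least 755 counts in each library. GC content and length came from GENCODE transcripts on GRCh37, for 95.6% of tested genes, and the offset was fitted with a loess span of 0.4. Alternatives were DESeq2 1.42.0, other scalings and filters, a replicate block, GC and length offsets, and leaving out each library.

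The members and gene lists were chosen with earlier results of these data known. Genes named from a list are the 2 largest called rises and falls whose mean normalized count reached 100, in the comparisons against Nut 0 h. For Nut 10 h against Nut 1 h only counts are given. Neighbours, the snoRNAs passing the filter, the 5 profiles nearest to GAS5, MDM2 and CDKN1A were named by rule, and 2 genes that the rules also name are not reported here. Of 17 other non-coding hosts, 11 had a row in the counts and 8 were tested. NOP56, NOP58 and DKC1 stand in both the host and snoRNP lists. PECAM1, listed as another marker, had no matched row.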

Additional observations from a re-analysis of the deposited data

Results flagged for a closer look

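For 6 members the change at 10 h differed from that at 1 h against the shared Nut 0 h libraries, tested as Nut 10 h against Nut 1 h in edgeR. The log2FC between these times was -0.84 for SNHG1, -0.77 for SNHG3, -0.75 for SNHG5, -0.62 for SNHG12, -0.59 for GAS5 and -0.37 for SNHG6, with both 10 h libraries below both 1 h libraries in each of the 6 genes. Such separation was not counted over all tested genes, of which 33.7% were called lower in this comparison. With the GC-content offset SNHG6 stood at 0.26 and the other 5 remained lower. With the GC content as the median over transcripts GAS5 was at -0.10 and not called.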

How the results depend on the processing

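Each comparison was refitted under 17 alternatives, of which the GC-content offset from the median over transcripts was chosen after seeing the data. Of the 9 members called at 1 h, 5 kept their call in every alternative. The share of all called genes that did so was not counted. At 1 h against 0 h, 1 member was called lower, 2 with the GC-content offset, with or without the replicate block, 0 with the length offset, and 0 to 1 when each library was left out. At 10 h against 0 h, 3 were called higher and 0 to 3 with a library left out, while 0 were called lower and 0 to 1 with a library left out, 1 without a low-count filter, and 1 with either GC-content offset or the block with the offset. At 10 h against 1 h, 0 were called higher, 2 with the GC-content offset, with or without the block, 3 with the median over transcripts, 1 with the length offset, and 0 to 2 with a library left out. The length offset moved the median of all tested genes at 1 h by itself, to 0.13, against 0.05.

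The direction changed as follows, in log2FC, with the GC-content offset, its version from the median over transcripts, and the replicate block with the offset in that order. At 1 h, SNHG6 was at -0.27, -0.22 and -0.26, SNHG7 at 1.03, 0.041 and 1.03, SNHG8 at -0.46, -0.049 and -0.46, DHX34 at 0.11, 0.22 and 0.11, SLC3A2 at 0.36, 0.28 and 0.36, RCC1 at 0.089, 0.29 and 0.089, and MCMDC2 at -0.49, -0.56 and -0.50. PRRC2A was at 0.068 with the first and 0.069 with the last, and SNHG11 (0.13) and SMG9 (0.29) changed with the median over transcripts. At 10 h against 1 h, SNHG6 was at 0.26, 0.22 and 0.26, SNHG7 at -1.14, -0.22 and -1.14, and SNHG16 at 0.21 with the median over transcripts. The length offset gave SLC3A2 0.018, RCC1 0.073 and TRNAU1AP 0.21 at 1 h, and SNHG7 -0.030 at 10 h against 1 h. DESeq2 gave CDKN1A -0.0029 at 1 h. At 10 h against 0 h, values near 0 changed sign: SNHG3 with the upper quartile (0.045), the stricter filter (0.0018), the replicate block (0.0005), the length offset (0.066) and 4 libraries only (0.0013), and SNHG6 with the upper quartile (0.042) and the length offset (0.073). With a library left out, SNHG3 ranged from -0.080 to 0.078, SNHG5 from -0.19 to 0.0048, SNHG6 from -0.046 to 0.031, SNHG12 from -0.19 to 0.0044 and SNHG15 from -0.013 to 0.32 at 10 h against 0 h, SNHG15 from -0.25 to 0.080 at 10 h against 1 h, and MCMDC2 from -0.084 to 0.69 and CDKN1A from -0.059 to 0.14 at 1 h. The cause of these changes was not tested.

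Deviations of same-numbered libraries correlated across genes at -0.13 (0 h and 1 h), 0.20 (0 h and 10 h) and -0.12 (1 h and 10 h). With 2 libraries per condition, these values cannot decide whether the replicate numbers pair the libraries. With the replicate block 7 members were called higher at 1 h and 3 at 10 h. With 2 libraries per condition and 3 residual degrees of freedom, 1 library can decide a call, as for the 3 members called at 10 h.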
